A study of Mus musculus with 4 samples.

Results

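The autophagy genes of mouse liver were taken as the protein-coding genes whose symbol is Atg followed by a digit, 19 in number, together with 20 listed genes that act in the same pathway. This gave 39 of the 48709 genes in the count tables, of which 37 had enough reads to be tested. Poly(A) RNA from the livers of untreated adult C57BL/6 mice was sequenced as 4 libraries, 2 labelled WT and 2 labelled DDI2-KO, to find genes that depend on the protease DDI2. The DDI2-KO mice carried the floxed Ddi2 tm1a(EUCOMM)Hmgu allele and expressed Cre recombinase under the albumin promoter, which is active in hepatocytes. Ddi2 in the other cells of the liver was not measured apart. The WT mice were described as littermate controls. The study mated Ddi2 flox/flox mice without Cre to Ddi2 flox/flox mice with albumin-Cre, and littermates without Cre from this cross also carry floxed alleles. The Ddi2 alleles of the sequenced WT mice are not stated in the sources used here. The study refers to biological replicates without stating whether each library came from 1 mouse, so the p-values measure the spread between these libraries. Mice of both sexes aged 6 to 12 weeks entered the experiments, and the labels and the study do not state which age and sex each sequenced mouse had.

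Autophagy encloses cytoplasm in a double membrane and delivers it to lysosomes. The ULK kinase complex and the class III phosphatidylinositol 3-kinase (PI3K) complex start the membrane, ATG9 vesicles and ATG2 proteins supply its lipids, and conjugation enzymes join ATG8 proteins (the LC3 and GABARAP families) to phosphatidylethanolamine, where cargo receptors bind them. In the liver, autophagy is known for supplying nutrients during fasting and for removing protein aggregates, lipid droplets and mitochondria, and TFEB and TFE3 are known to activate its genes when nutrients are scarce.

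The targeted gene was examined first. Ddi2 had 141 and 123 CPM (reads relative to the scaled library size) in the WT libraries and 157 and 164 CPM in the DDI2-KO-labelled libraries. Both DDI2-KO-labelled libraries lay above both WT libraries, and no loss of Ddi2 mRNA was seen. The log2 fold change was 0.28 (SE, standard error, 0.17, edgeR quasi-likelihood test, Benjamini-Hochberg adjusted p = 0.349). Reads were counted over the whole gene, with the floxed exon and the others together, so they neither bear out nor contradict the labels, and every direction given below follows the labels. Nfe2l1, which encodes the DDI2 substrate NRF1, had 106 and 68.0 CPM in WT and 114 and 73.7 CPM in the DDI2-KO-labelled libraries. Its log2 fold change was 0.11 (edgeR adjusted p = 0.845), and this ranged from -0.24 to 0.47 with 1 library left out. Nfe2l2, which encodes the related factor NRF2, had a log2 fold change of -0.19 (edgeR adjusted p = 0.547), or -0.29 to -0.071 with 1 library left out.

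Depth was 34109018 and 31532247 reads on genes for WT, and 25582344 and 22501208 for DDI2-KO. A count of 3 reads corresponded to 0.0880 to 0.133 CPM. The hepatocyte markers were abundant in every library. The 10 listed markers summed to 168300 and 188400 CPM in WT and 156400 and 159900 CPM in the DDI2-KO-labelled libraries, both below WT. Alb, the gene of serum albumin, made up most of the sum (134400 and 154600 CPM against 122400 and 128500 CPM). Of the 10 markers, 6 had a log2 fold change below 0, the others lay above 0, and none had an adjusted p under 0.05. Several measures moved with the label. Relative to the reads on genes, those on no gene made up 5.11% and 4.70% in the WT livers, against 2.53% and 3.65% in the DDI2-KO-labelled livers, and the reads on mitochondrial genes were 10.5% and 9.91% against 5.28% and 6.34%. Reads that map to several places, which were not counted on genes, amounted to 65.8% and 51.8% in WT, against 49.2% and 47.3%. The nuclear RNAs Malat1 (log2 fold change -1.29, edgeR adjusted p = 0.0224) and Neat1 (-1.78, edgeR adjusted p = 0.0438) were lower in the DDI2-KO-labelled libraries, as was Xist, without passing (-2.23, edgeR adjusted p = 0.1196). Xist, an RNA of the X chromosome, was covered by 17484 and 11533 reads for WT, against 1230 and 3288 for DDI2-KO. The part of the sex of the mice in this difference was not tested. The 8 markers of sinusoidal endothelium were split, with 5 log2 fold changes below 0 and 3 above, and their sum, led by Clec4g, overlapped between the groups (473 and 426 CPM against 436 and 410 CPM). The receptor Stab2 was the only one of the 8 with an adjusted p under 0.05 (-1.10, edgeR adjusted p = 0.0288). The 3 tested erythroid genes of 4 lay below 0, and the haemoglobin gene Hba-a1 was the only one to pass (-1.94, edgeR adjusted p = 0.0338). The summed markers of Kupffer cells were higher in both DDI2-KO-labelled libraries than in WT (869 and 743 CPM against 730 and 624 CPM). Those of stellate cells were lower in both (469 and 504 CPM against 519 and 574 CPM), and no gene of either list passed. The part of these differences in the values of the autophagy genes was not tested. In bulk liver RNA, fewer cells of a type and less RNA per cell cannot be told apart.

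Among the 37 tested autophagy genes, Gabarapl2 was higher in the DDI2-KO-labelled libraries and no other gene passed an adjusted p of 0.05. The call of Gabarapl2 did not hold when either WT library was left out, as given with its values below. This was 1 gene or 2.70% of those tested, against 2.53% of all 13699 genes tested in edgeR (quasi-likelihood test, Benjamini-Hochberg adjusted). At an unadjusted p under 0.05 there were 10 autophagy genes, 7 with the higher mean in the DDI2-KO-labelled libraries and 3 with the lower, or 27.0% against 23.5% of all tested genes. The CPM of the groups did not overlap for 25 autophagy genes, 18 with both DDI2-KO-labelled libraries above WT and 7 with both below, or 67.6% against 55.7%. The share with an adjusted p under 0.05 lay near that of the genes at large, while the other shares differed by direction. Both DDI2-KO-labelled libraries lay above WT in 48.6% of the autophagy genes, against 28.0% of all tested genes, and below WT in 18.9% against 27.7%. At an unadjusted p under 0.05, 18.9% were higher, against 12.0%, and 8.11% were lower, against 11.5%. These shares describe a list chosen with earlier results known and carry no test. The median log2 fold change was 0.22 over the tested autophagy genes and -0.015 over all tested genes, with 23 autophagy genes (62.2%, or 21 genes with upper-quartile factors) above 0 against 48.7%. Their differences were small, and 29 of the 37 (78.4%) lay within 0.5 of 0 on the log2 scale, against 71.4% of all tested genes. Summed over the members, the level was 2305 and 2312 CPM in WT and 2349 and 2306 CPM in the DDI2-KO-labelled libraries, so the groups overlapped in this sum. Gabarapl1, Sqstm1, Gabarap and Nbr1 led it (339, 320, 250 and 217 CPM in WT library 1). The sum therefore says little of the genes with fewer reads.

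**Figure D1:**
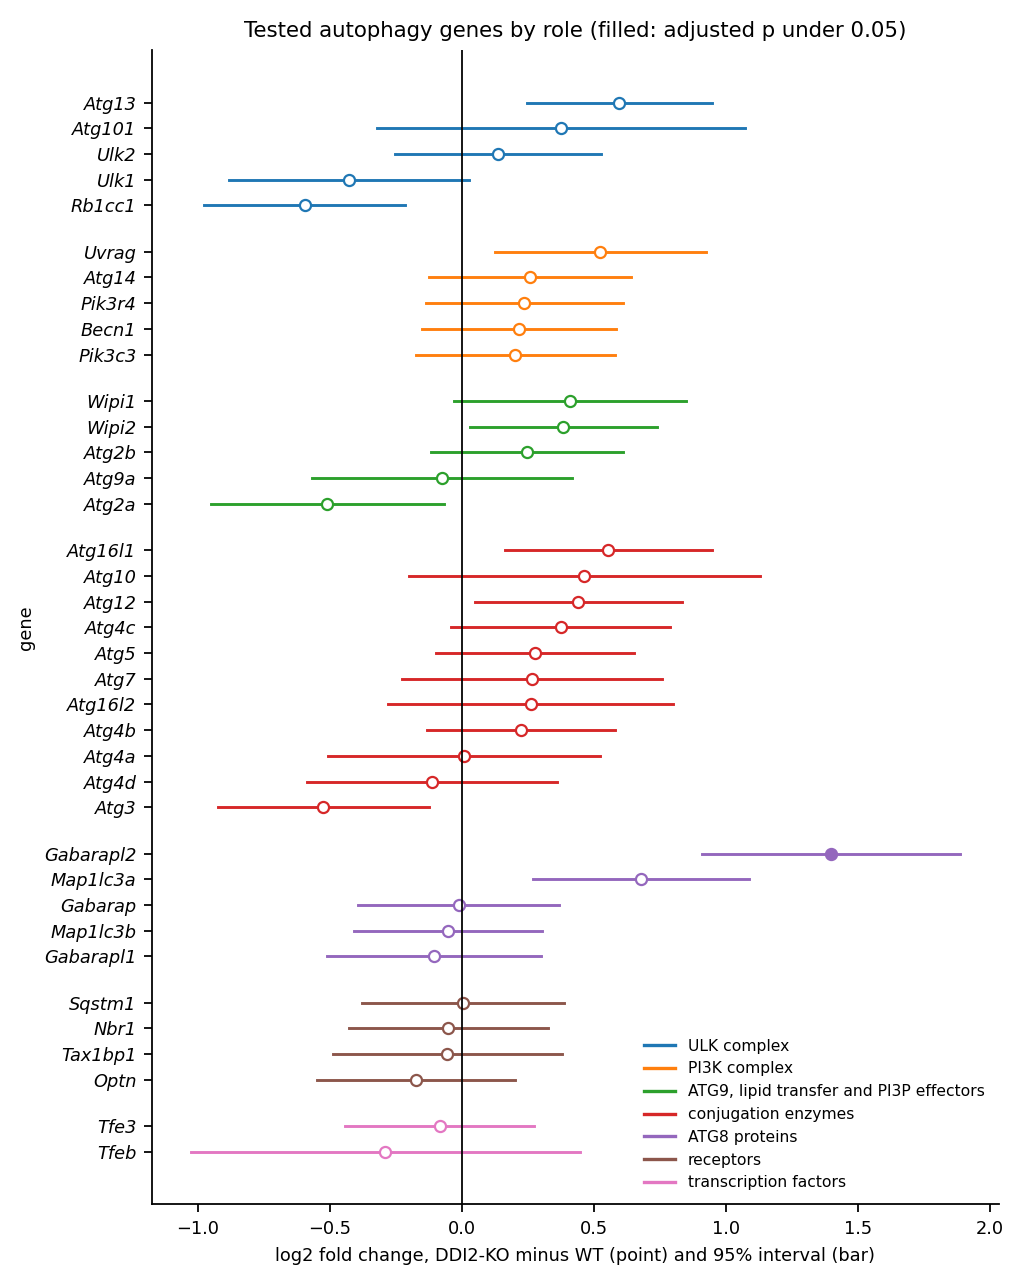
Log2 fold change of each tested autophagy gene (DDI2-KO-labelled libraries minus WT, n = 2 libraries per group) with its 95% interval from edgeR, grouped and coloured by role. Filled points had an adjusted p under 0.05. Gabarapl2 is the filled point, at 1.40, the 5 PI3K genes lie between 0.20 and 0.53, and the 4 receptor genes lie between -0.17 and 0.004.

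Autophagy begins with the ULK complex, in which the kinases ULK1 and ULK2 are held by ATG13, ATG101 and the scaffold RB1CC1, also known as FIP200. Of its 5 genes, 3 had a log2 fold change above 0 and 2 below, with a median of 0.14, and none passed the adjusted threshold. Atg13 had 37.8 and 38.5 CPM in WT and 60.5 and 55.0 CPM in the DDI2-KO-labelled libraries. The WT libraries differed little and both lay below the others. Its log2 fold change was 0.60 (SE 0.15, unadjusted p of 0.00422, edgeR adjusted p = 0.0744). Rb1cc1 went the other way, with 40.3 and 34.5 CPM in WT and 25.9 and 23.6 CPM in the DDI2-KO-labelled libraries. Again the groups did not overlap, here with WT on the upper side, and the log2 fold change was -0.60 (SE 0.17, unadjusted p of 0.00687, edgeR adjusted p = 0.0884). It was -0.20 when offsets corrected GC content and length. The count of Rb1cc1 is uncertain, since 12.0% of its stretches of 50 bases occur in transcripts of other genes, 8.48% in the pseudogene Gm13961 and 3.49% in the antisense RNA 4732440D04Rik. This antisense RNA was covered by 82 and 94 reads for WT, against 9 and 11 for DDI2-KO (log2 fold change -2.72, edgeR adjusted p = 0.0209), and whether the counting used strand is not given in the sources used here.

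The catalytic subunits stood in different positions. Ulk2 had the highest mean level per length of the complex in WT, although Ulk1 stood above it in WT library 2 (29.9 against 27.3 TPM, the level per exon length). This rests on union exon length. Per length of the longest coding transcript, the WT means of Ulk1 (5213 bases) and Atg101 (1270 bases) were above that of Ulk2 (5743 bases). Ulk2 had 83.5 and 70.3 CPM in WT and 79.7 and 89.6 CPM in the DDI2-KO-labelled libraries, so the groups overlapped (log2 fold change 0.14, SE 0.17, edgeR adjusted p = 0.673). Ulk1 had a log2 fold change of -0.43 (95% interval -0.88 to 0.027, edgeR adjusted p = 0.236), with both DDI2-KO-labelled libraries below WT, and this was -0.23 without WT library 2 and -0.24 without DDI2-KO-labelled library 2. For Atg101, DDI2-KO-labelled library 1 stood apart at 30.3 CPM, while library 2 had 15.8 CPM and the WT libraries had 19.0 and 16.4 CPM. The log2 fold change of Atg101 was 0.38 in all 4 libraries (edgeR adjusted p = 0.491), -0.17 without DDI2-KO-labelled library 1 and 0.78 without library 2 (edgeR adjusted p = 0.0485).

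The class III PI3K complex makes phosphatidylinositol 3-phosphate (PI3P) on the growing membrane. It holds the lipid kinase PIK3C3, the regulatory subunit PIK3R4, BECN1 and either ATG14, in autophagy, or UVRAG, in endosome traffic. All 5 genes had a log2 fold change above 0, from 0.20 to 0.53 with a median of 0.24, and in all 5 both DDI2-KO-labelled libraries lay above both WT libraries (as in 28.0% of all tested genes), but none had an adjusted p under 0.05. Uvrag had 21.5 and 26.9 CPM in WT and 35.4 and 34.1 CPM in the DDI2-KO-labelled libraries. The DDI2-KO-labelled libraries were close to each other and above both WT libraries, and the log2 fold change was 0.53 (SE 0.17, unadjusted p of 0.0160, edgeR adjusted p = 0.125). Becn1, the gene of the complex with the highest level per length, had 44.3 and 50.6 CPM in WT and 52.0 and 58.3 CPM in the DDI2-KO-labelled libraries. The gap between the groups was smaller than the gap between libraries of 1 group, with a log2 fold change of 0.22 (SE 0.16, edgeR adjusted p = 0.453). Its count is uncertain as well, since 45.7% of its stretches occur in annotated transcripts of other genes, mostly of Cntd1, which had 1 to 5 reads in each library. Pik3c3, Pik3r4 and Atg14 had log2 fold changes of 0.20, 0.24 and 0.26. Over the 10 initiation genes of both complexes, 8 lay above 0 and 2 below, with a median of 0.23.

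ATG9 scrambles lipids in the vesicles that seed the membrane, ATG2 proteins carry lipids to it, and WIPI proteins bind PI3P. Of these 6 genes, Atg9b was nearly silent, with 7 and 1 reads for WT, against 2 and 1 for DDI2-KO, and was not tested. Of the 5 tested, 3 lay above 0 and 2 below. Atg2a had 38.1 and 36.9 CPM in WT and 30.6 and 22.1 CPM in the DDI2-KO-labelled libraries. Both of the latter lay below WT but far apart, and its log2 fold change was -0.51 (SE 0.19, unadjusted p of 0.0287, edgeR adjusted p = 0.165). It was -0.28 without DDI2-KO-labelled library 2, -0.76 without library 1 and -0.29 when offsets corrected GC content and length. The paralog Atg2b lay on the other side of 0, at 0.25 (edgeR adjusted p = 0.380). Wipi2, which brings ATG16L1 to PI3P, had 56.5 and 54.0 CPM in WT and 75.8 and 68.4 CPM in the DDI2-KO-labelled libraries. The groups did not overlap, and the log2 fold change was 0.38 (SE 0.15, unadjusted p of 0.0369, edgeR adjusted p = 0.186). Atg9a had 34.9 and 27.1 CPM in WT and 34.3 and 24.4 CPM in the DDI2-KO-labelled libraries. Its libraries differed more within each group than between the groups (log2 fold change -0.076, SE 0.22, edgeR adjusted p = 0.867). The sign turned without WT library 1 (0.12) and without DDI2-KO-labelled library 2 (0.16). Other genes, mostly Gm29253, hold 42.6% of the stretches of Atg9a. Gm29253 had 0 reads in every library. Per length, the mean WT levels of Atg9a (12.5 TPM), Wipi2 (12.2 TPM) and Atg2a (11.3 TPM) were close to each other, and their order differed between the WT libraries. This rests on union exon length. Per length of the longest coding transcript (4218, 5171 and 6371 bases in the same sequence of genes), Wipi2 was the highest and Atg2a the lowest of them in WT. Wipi1 had a log2 fold change of 0.41 (edgeR adjusted p = 0.238), or 0.20 without DDI2-KO-labelled library 1.

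Lipidation needs an E1-like enzyme (ATG7), the E2-like enzymes ATG3 and ATG10, the ATG12-ATG5-ATG16L1 conjugate that acts as an E3, and the ATG4 proteases, which trim ATG8 proteins and later cut them off the membrane. Of these 11 genes, 9 had a log2 fold change above 0, counting Atg4a at 0.009, whose sign turned with upper-quartile factors, and 2 below, with a median of 0.26, and none had an adjusted p under 0.05. Atg3, the gene with the highest level per length of the group, was the main exception in direction. It had 114.5 and 109.8 CPM in WT and 69.6 and 86.4 CPM in the DDI2-KO-labelled libraries. Both WT libraries lay above the others, and the log2 fold change was -0.52 (SE 0.17, unadjusted p of 0.0162, edgeR adjusted p = 0.125).

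The genes of the E3-like conjugate (Atg12, Atg5 and Atg16l1) lay on the other side. Atg16l1, which sets the membrane where lipidation takes place, had 24.5 and 29.7 CPM in WT and 41.8 and 37.7 CPM in the DDI2-KO-labelled libraries, with no overlap (log2 fold change 0.56, SE 0.17, unadjusted p of 0.0113, edgeR adjusted p = 0.109). Atg12 had 28.2 and 23.6 CPM in WT and 33.2 and 37.3 CPM in the DDI2-KO-labelled libraries, also without overlap (log2 fold change 0.44, SE 0.17, unadjusted p of 0.0319, edgeR adjusted p = 0.174). Atg5, at 0.28, showed the same order of groups. Outside the conjugate, so did the E2-like gene Atg10, at 0.46, and Atg16l2, a paralog of Atg16l1 with 3.81 to 5.25 CPM, at 0.26. With 1 library left out their log2 fold changes ranged from 0.17 to 0.40 for Atg5, 0.175 to 0.72 for Atg10 and 0.11 to 0.42 for Atg16l2. Atg7 overlapped between groups, with 29.7 and 26.1 CPM in WT and 40.1 and 26.8 CPM in the DDI2-KO-labelled libraries. The difference of Atg7, 0.26 on the log2 scale, rested on DDI2-KO-labelled library 1 and was -0.053 without it.

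The 4 protease genes had log2 fold changes of 0.009 (Atg4a), 0.22 (Atg4b), 0.38 (Atg4c) and -0.11 (Atg4d), with adjusted p from 0.251 to 0.985 from edgeR. The sign of Atg4a turned with upper-quartile factors (-0.044), with a filter at a mean of 1 CPM (-0.010) and in 2 of the fits that left out a library, and that of Atg4d turned without DDI2-KO-labelled library 2 (0.11). Of the stretches of Atg4a, 63.6% occur in other genes, chiefly in Atg4a-ps, a gene annotated as protein-coding that entered by its symbol and was covered by 1 read in WT library 2 and by 0 reads in the other libraries. Atg4a-ps was not tested. Atg4d shares 18.2% of its stretches, mostly with the neighbouring gene Kri1.

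The ATG8 proteins are the ubiquitin-like products of lipidation. ATG4 cuts each just behind a glycine, and the lipid is then joined to this residue. The ends of 4 of the coding sequences are shown because the family is compared gene by gene, with the codon of this glycine in capitals. Each run is the last 30 coding bases before the stop codon of the longest annotated transcript that has a phenylalanine or tyrosine codon before a glycine codon near its end.
Gabarapl2: gcctacagcggagagaacacttttGGCttc
Gabarap: gcctacagtgatgaaagcgtctatGGTctg
Gabarapl1: gcctacagtgatgaaagtgtctatGGAaaa
Map1lc3a: gtctacgcctcccaagaaaccttcGGCttc
All are exonic coding sequence on the plus strand of GRCm38, at chr8:111952373-111952402 for Gabarapl2, chr11:69994492-69994521 for Gabarap, chr6:129541135-129541164 for Gabarapl1 and chr2:155277605-155277634 for Map1lc3a.

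Gabarapl2 (ENSMUSG00000031950, chr8:111940703-111953612 of GRCm38, plus strand) encodes GATE-16, an ATG8 protein that acts late in membrane growth and closure and was first known from Golgi transport. It was covered by 181 and 163 reads for WT, against 411 and 281 for DDI2-KO, or 5.38 and 5.28 CPM against 15.9 and 12.2 CPM. The WT libraries were nearly equal, both DDI2-KO-labelled libraries lay above them, and library 1 of these was the higher. The log2 fold change was 1.40 (SE 0.21, 95% interval 0.91 to 1.89, edgeR quasi-likelihood test, Benjamini-Hochberg adjusted p = 0.0288), or 2.64-fold with an interval of 1.88 to 3.70. Its adjusted p was 0.0779 without WT library 1 and 0.0606 without WT library 2, both from edgeR, and so did not pass with a lone WT library, while its log2 fold change ranged from 1.20 to 1.58 over the libraries left out. Of its stretches of 50 bases, 17.0% occur in other genes, 12.3% in the processed pseudogene Gm3724. The 4 pseudogenes involved had at most 2 reads in any library, and reads that map to several places, whose share differed between the groups as given above, were not counted, so its count is uncertain.

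The ATG8 gene next in size of difference was Map1lc3a, which encodes LC3A. It had 9.49 and 9.52 CPM in WT and 15.7 and 14.7 CPM in the DDI2-KO-labelled libraries. Libraries of the same label were close, with a gap between the groups, and the log2 fold change was 0.68 (SE 0.18, unadjusted p of 0.00490, edgeR adjusted p = 0.0775). None of its stretches occur in another gene. The 3 ATG8 genes with more reads showed small differences. Map1lc3b, which encodes LC3B, the usual marker of autophagosomes, had 78.6 and 83.6 CPM in WT and 77.2 and 79.1 CPM in the DDI2-KO-labelled libraries. The groups overlapped and the log2 fold change was -0.053 (95% interval -0.41 to 0.30, edgeR adjusted p = 0.871). Gabarap, the founding member of its family, had 249.8 and 253.7 CPM in WT and 243.3 and 255.9 CPM in the DDI2-KO-labelled libraries, again with overlap. Its log2 fold change was -0.012 (95% interval -0.39 to 0.37, edgeR adjusted p = 0.972), and the sign turned with library totals in place of scaling factors (0.036). Gabarapl1 had 339 and 365 CPM in WT and 305 and 350.4 CPM in the DDI2-KO-labelled libraries, where library 1 was the lowest and library 2 lay between the WT libraries. Its log2 fold change was -0.10 (95% interval -0.51 to 0.30, edgeR adjusted p = 0.760), and 18.6% of its stretches occur in 1700101I11Rik, which had 3 or 4 reads in each library.

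**Figure D2:**
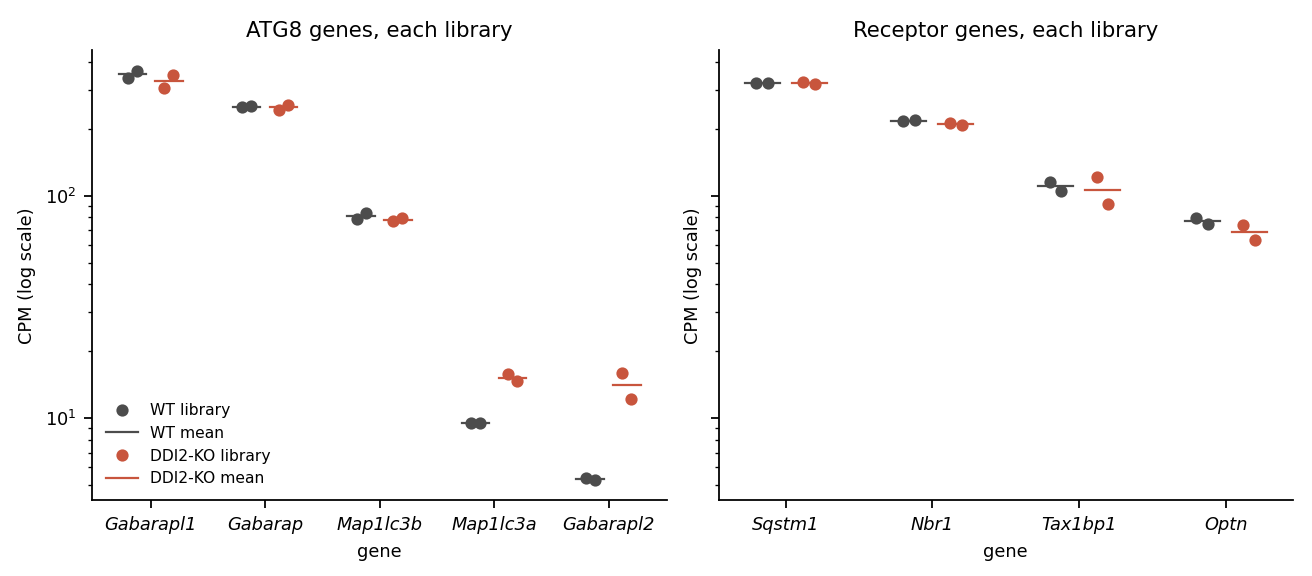
CPM on a log scale of the 5 ATG8 genes and the 4 receptor genes in each of the 4 libraries, with points for libraries and lines for the mean of 2 libraries. Gabarapl2, at 5.28 and 5.38 CPM in WT and 12.2 and 15.9 CPM in the DDI2-KO-labelled libraries, and Map1lc3a show a gap between the groups, while the points of Gabarap, Map1lc3b and Sqstm1 overlap.

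Compared per length as levels, not as differences, the ATG8 genes spanned a wide range. In WT the mean level was 407 TPM for Gabarapl1, 318 TPM for Gabarap, 25.1 TPM for Map1lc3b, 18.7 TPM for Map1lc3a and 5.33 TPM for Gabarapl2. The neighbours in this order did not overlap between WT libraries. In the DDI2-KO-labelled libraries the means were 411, 342, 26.3, 32.6 and 15.3 TPM in the same sequence of genes, so that Map1lc3a stood above Map1lc3b there. This rests on union exon length, which was 1181 bases for Map1lc3a and 7517 bases for Map1lc3b. Their longest coding transcripts had 1112 and 2633 bases, and per those lengths Map1lc3b was the higher. Gabarapl2 remained the lowest of the 5 in level in both groups. Over the 16 lipidation genes, ATG8 genes and conjugation enzymes together, 11 had a log2 fold change above 0 and 5 below, with a median of 0.26, counting Atg4a and Gabarap, whose signs turned with the scaling.

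**Figure D3:**
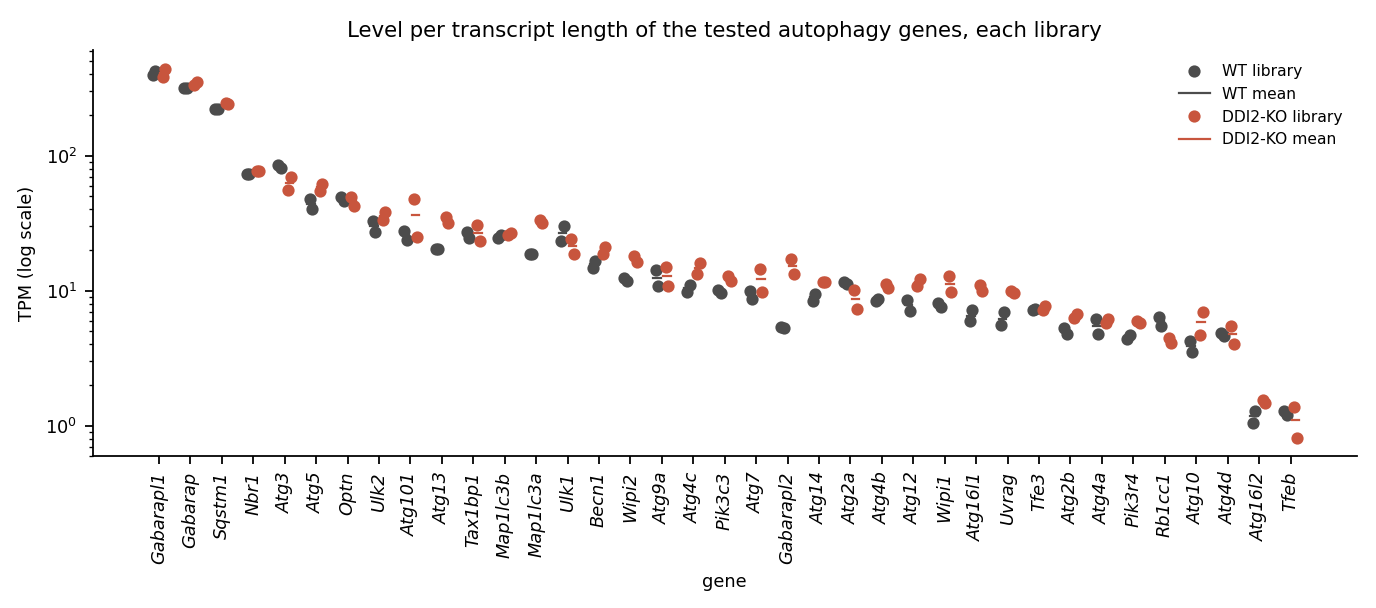
Level per union exon length (TPM, log scale) of the 37 tested autophagy genes in each library, ordered by the mean of the 4 libraries. Points are libraries and lines are the mean of 2 libraries. Gabarapl1, Gabarap and Sqstm1 have the highest levels, at 407, 318 and 223 TPM in WT, and Tfeb and Atg16l2 the lowest, at 1.24 and 1.17 TPM.

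Cargo receptors bind ubiquitinated cargo on one side and ATG8 proteins on the other. None of the 4 receptor genes had an adjusted p under 0.05 or an unadjusted p under 0.05, and their log2 fold changes ran from -0.17 to 0.004. With offsets for GC content and length they ran from -0.30 (Optn) to 0.24 (Tax1bp1). Sqstm1, which encodes p62, the receptor that builds up as protein when autophagy is blocked, had 320.2 and 323 CPM in WT and 326 and 319 CPM in the DDI2-KO-labelled libraries. The DDI2-KO-labelled libraries were the highest and the lowest of the 4, with WT between them. The log2 fold change was 0.004 (95% interval -0.38 to 0.39, edgeR adjusted p = 0.991) and turned below 0 with upper-quartile factors (-0.049). The interval takes in differences up to 0.39 in size, and 20.4% of the stretches of Sqstm1 occur in Mrnip.

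Nbr1, a relative of p62 that also gathers ubiquitinated proteins, had 217 and 219 CPM in WT and 212 and 209 CPM in the DDI2-KO-labelled libraries. The groups did not overlap, but the gap was small, and the log2 fold change was -0.051 (95% interval -0.43 to 0.33, edgeR adjusted p = 0.883). Optn, which acts on damaged mitochondria and bacteria, had 79.8 and 74.5 CPM in WT and 73.8 and 63.1 CPM in the DDI2-KO-labelled libraries. DDI2-KO-labelled library 1 was just under WT library 2, and the log2 fold change was -0.17 (95% interval -0.55 to 0.20, edgeR adjusted p = 0.569). Tax1bp1 had 115.6 and 105.5 CPM in WT and 121.5 and 91.3 CPM in the DDI2-KO-labelled libraries, which lay on either side of WT. Between the groups, its log2 fold change was -0.055 (95% interval -0.49 to 0.38, edgeR adjusted p = 0.891). The sign turned with offsets for GC content and length (0.24), without DDI2-KO-labelled library 2 (0.145) and without WT library 1 (0.015). Per length, the order of receptor levels in WT was Sqstm1 (223 TPM), Nbr1 (73.7 TPM), Optn (47.8 TPM) and Tax1bp1 (25.7 TPM), and it was the same in the DDI2-KO-labelled libraries. The order of Optn and Tax1bp1 rests on union exon length (3753 and 9991 bases). Per length of the longest coding transcript (2614 and 3285 bases), Tax1bp1 was the higher in both groups.

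The transcription factor TFEB was encoded by few transcripts. Tfeb had 3.12 and 2.91 CPM in WT and 3.09 and 1.83 CPM in the DDI2-KO-labelled libraries, with overlap (log2 fold change -0.29, 95% interval -1.03 to 0.45, edgeR adjusted p = 0.633). It was covered by 42 to 105 reads per library, and the log2 fold change was 0.043 without DDI2-KO-labelled library 2 and -0.72 without library 1. Tfe3, its relative and the more abundant per length, had 28.5 and 29.1 CPM in WT and 26.4 and 28.0 CPM in the DDI2-KO-labelled libraries. The groups were separated by less than 1 CPM, and the log2 fold change was -0.084 (95% interval -0.44 to 0.27, edgeR adjusted p = 0.786). Counts of mRNA do not show where these factors are in the cell.

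The genes closest to the threshold depended on the processing in different ways. Gabarapl2 had an adjusted p under 0.05 in all 11 alternatives that used the 4 libraries, from 1.05e-05 to 0.0420, including DESeq2 and limma. Atg13 passed by DESeq2 (adjusted p = 0.0441) and without the filter on low counts (edgeR adjusted p = 0.0227), and also without DDI2-KO-labelled library 2 (edgeR adjusted p = 0.0497). Map1lc3a passed without the filter (edgeR adjusted p = 0.0296) and once GC content and length were corrected by offsets (edgeR adjusted p = 0.0310). Rb1cc1 passed only without the filter (edgeR adjusted p = 0.0337), and with the offsets its log2 fold change was -0.20.

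**Figure D4:**
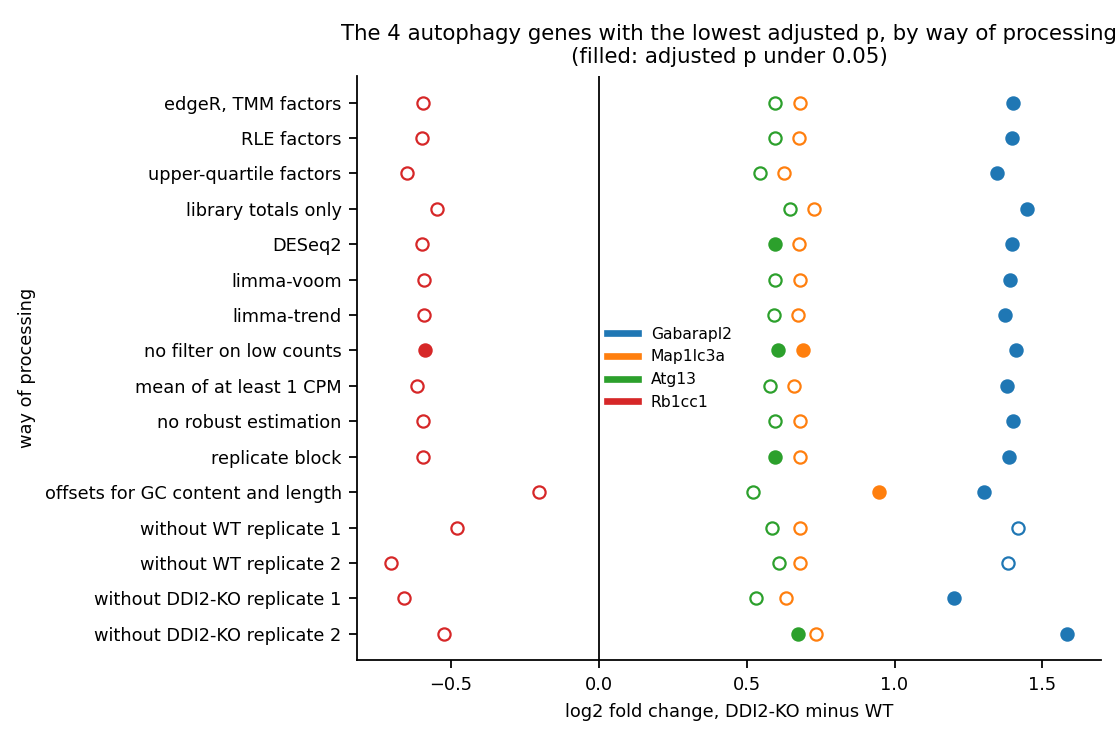
Log2 fold change (DDI2-KO-labelled libraries minus WT) of the 4 autophagy genes with the lowest adjusted p, for each way of processing on the vertical axis. Filled points had an adjusted p under 0.05. Gabarapl2 lies between 1.20 and 1.58 throughout and is not filled where a WT library was left out.

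Sequence upstream of the start sites was read from RefSeq (GRCm38.p6), which gave a window from 250 bases before to 50 after the start for 32 of the 39 genes. Windows for Atg12, Atg16l1, Atg4a-ps, Becn1, Map1lc3a, Pik3c3 and Rb1cc1 were missing. The E-box core CACGTG, which TFEB and many other factors are known to bind, was searched on both strands and was in a window of 4 of the 32 genes (Atg3, Atg5, Atg7 and Atg14), or 12.5%, against 8.09% of 27025 genes. The windows of Atg7 (chr6:114670846-114671145) and Atg14 (chr14:47568385-47568684) lie at RefSeq starts inside the GENCODE genes. Those genes begin further upstream, at 114643097 for Atg7 and at 47570649 for Atg14, which is on the minus strand. The core of the antioxidant response element, TGACNNNGC on both strands, to which NRF1 and NRF2 are known to bind, was in 4 of the 32 (Atg13, Map1lc3b, Tax1bp1 and Ulk2), or 12.5%, against 14.0%. No window of these genes held both motifs, and these are matches of letters, not sites shown to be used. Gabarapl2 and Atg13, the genes with the lowest unadjusted p that had a window, are shown by the 250 bases before their start site, with the match to TGACNNNGC (here read on the opposite strand, starting at -242 from the start site of Atg13) in capitals. No match to either motif was in the window of Gabarapl2.
Gabarapl2: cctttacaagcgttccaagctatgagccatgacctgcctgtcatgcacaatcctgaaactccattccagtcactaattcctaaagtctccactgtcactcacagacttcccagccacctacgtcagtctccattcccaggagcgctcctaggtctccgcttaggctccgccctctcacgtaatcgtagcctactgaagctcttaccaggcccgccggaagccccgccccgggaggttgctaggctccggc
Atg13: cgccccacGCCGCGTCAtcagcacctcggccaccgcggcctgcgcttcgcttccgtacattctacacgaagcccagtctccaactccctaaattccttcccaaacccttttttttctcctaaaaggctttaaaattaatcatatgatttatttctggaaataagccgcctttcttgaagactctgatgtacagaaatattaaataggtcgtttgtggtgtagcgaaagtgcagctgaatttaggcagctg
They lie at chr8:111940453-111940702 on the plus strand and chr2:91710593-91710842 on the minus strand of GRCm38.p6.

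Beyond these genes, a list of 77 other genes of the pathway was examined, of which 75 were tested. Calcoco2, a receptor gene, had 0 reads in every library and Rragb had 5 to 11. With edgeR 0 of the 75 had an adjusted p under 0.05, against 2.53% of all tested genes, and 17 had an unadjusted p under 0.05 (10 with a log2 fold change above 0 and 7 below, or 22.7% against 23.5%). DESeq2 called 4 of them (5.33% against 6.86%), and limma-voom and limma-trend called 0 (against 0.993% and 1.01%). Their median log2 fold change was 0.084, with 45 above 0 and 30 below. By group, the median was 0.088 over 26 upstream kinase and regulator genes, 0.33 over 11 partners of the PI3K complex, 0.10 over 10 genes of fusion with lysosomes, 0.048 over 18 other receptor and adaptor genes, -0.19 over 7 genes of transcription and 0.51 over 3 other kinases.

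The 5 pathway genes with the lowest unadjusted p included 3 that lie in receptor or adaptor groups. Retreg1, the receptor for autophagy of the endoplasmic reticulum also known as FAM134B, had 153 and 112 CPM in WT and 58.5 and 76.9 CPM in the DDI2-KO-labelled libraries. All WT values lay above the others although the WT libraries were far apart, and the log2 fold change was -0.97 (SE 0.22, edgeR adjusted p = 0.0570). Calcoco1, another receptor for the endoplasmic reticulum, had 43.5 and 38.1 CPM in WT and 28.2 and 24.1 CPM in the DDI2-KO-labelled libraries, without overlap (log2 fold change -0.64, SE 0.17, edgeR adjusted p = 0.0777). Tollip, an adaptor for ubiquitinated proteins, had 52.5 and 50.6 CPM in WT and 74.2 and 74.2 CPM in the DDI2-KO-labelled libraries. Libraries of the same label were close, WT was on the lower side, and there was no overlap, with a log2 fold change of 0.53 (SE 0.15, edgeR adjusted p = 0.0916).

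The remaining genes of this kind act upstream and on PI3P. Wdr45b, a PI3P-binding relative of the WIPI genes, had 29.1 and 26.7 CPM in WT and 47.1 and 43.1 CPM in the DDI2-KO-labelled libraries. The groups did not overlap, and the log2 fold change was 0.69 (SE 0.16, edgeR adjusted p = 0.0601). Fnip1, a partner of folliculin in nutrient sensing by mTORC1, had 45.8 and 35.0 CPM in WT and 21.1 and 25.2 CPM in the DDI2-KO-labelled libraries, with both WT libraries above the others (log2 fold change -0.80, SE 0.19, edgeR adjusted p = 0.0665). By DESeq2 the adjusted p was 0.00246 for Retreg1, 0.0176 for Fnip1, 0.0200 for Wdr45b and 0.0473 for Calcoco1.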

How the data were processed

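Livers of untreated WT and DDI2-KO mice were sequenced as 4 mRNA libraries with a TruSeq Stranded mRNA kit. The authors deposited raw counts of reads per Ensembl gene. The submitters' processing notes name cutadapt 1.8, STAR 2.5.2b, HTSeq 0.6.1 and GRCm38. The strand setting and the annotation used for counting are not given in the sources used here. The 5 summary lines of the counting program, such as reads on no gene or on several genes, stayed out of library sizes and tests. Reads on several genes were at most 2.54% as many as those on genes for WT, against 3.49% and 3.66% for DDI2-KO. Symbols, biotypes, positions and exon lengths came from GENCODE M21, which holds 48349 of the 48709 identifiers.

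Expression was compared with edgeR 4.0.16 in R 4.3.3 (filterByExpr, TMM scaling, glmQLFit with robust estimation, glmQLFTest, two-sided), without a replicate block, with Benjamini-Hochberg adjustment over 13699 genes. The standard error was the log2 fold change divided by the square root of F. CPM used TMM-scaled library sizes, and TPM used the same values divided by union exon length. Orders of level per length hold for that length, and some differ with the length of the longest coding transcript. Each choice was varied in turn. The scaling was changed to RLE, upper-quartile or library totals, the test to DESeq2 1.42.0 or limma 3.58.1 (voom, or trend at a prior count of 2), and the filter to none or a mean of 1 CPM. Robust estimation was dropped, a replicate block was added, lowess offsets (span 0.3) for GC content and length were added, and each library was left out. The members and lists were chosen with earlier results of these data known. Values per library are given for members with an adjusted p under 0.05, for those with an unadjusted p under 0.05 whose groups did not overlap, for all ATG8 and receptor genes, for the largest difference and highest level in each other role, and for the 5 pathway genes with the lowest p. Atg101, Atg7 and 4732440D04Rik were added after their values were seen. Stretches of 50 bases of the longest coding transcript of each member were looked up in the GENCODE transcripts of all other genes. The edgeR steps were run on simulated counts as a check of the code, with large known changes in well-covered genes and the same fixed spread for every gene. That spread was not taken from these libraries, so the check does not cover small differences or the spread seen here. The chi-square of counts between libraries of 1 group, divided by its degrees of freedom, was 70.5 in WT and 35.8 in DDI2-KO, beyond sampling noise, so no libraries were merged. HepG2 cells and mice given cadmium were not analysed here, and the coding end of 1 ATG8 gene is not reported here.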

Additional observations from a re-analysis of the deposited data

Results flagged for a closer look

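Reads that overlapped more than 1 gene are outside the comparisons above, and their share differed between the groups. Relative to reads on genes they reached at most 2.54% in WT, against 3.49% and 3.66% in the other group, whose mean was 3.57%. The part of this difference in the result was not tested.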

How the results depend on the processing

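With 2 libraries per group, fits without a library assume that the lone library varies like the others. The number of genes with an adjusted p under 0.05 was 346 with edgeR (182 higher, 164 lower, 52.6% higher). It was 940 by DESeq2, 136 by limma-voom, 139 by limma-trend, 1544 of 21099 without a filter on low counts, 152 without robust estimation, 771 with offsets for GC content and length, and 153 to 631 with each library left out. Upper-quartile factors gave 126 higher and 191 lower (39.7% higher) and library totals 60.8% higher. Among the autophagy genes, the count of 1 became 2 by DESeq2 (Atg13 and Gabarapl2, 5.41% against 6.86% of all tested genes), 5 without the filter (Atg13, Atg16l1, Gabarapl2, Map1lc3a and Rb1cc1, 12.8% against 7.32%), 2 with the offsets (Gabarapl2 and Map1lc3a, 5.41% against 5.63%), and 0 to 3 with each library left out (up to 8.11% against 4.41%, without DDI2-KO-labelled library 2), with 0 without WT library 1 or WT library 2. For the other pathway genes the count of 0 became 4 by DESeq2 (5.33%), 4 without the filter (5.26%), 2 with the offsets (2.67%), and 0 to 2 with each library left out. The causes were not tested.

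With a replicate block the counts were 1108 genes (8.09%), 2 autophagy genes (Atg13 and Gabarapl2, 5.41%) and 4 other pathway genes (Calcoco1, Fnip1, Retreg1 and Wdr45b, 5.33%). Libraries that share a replicate number did not deviate together (correlation 0.0465 over genes), so the numbers were not taken as pairs.

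These log2 fold changes turned in sign, all of them in genes with an adjusted p above 0.4 in the edgeR comparison. Upper-quartile factors gave -0.044 for Atg4a and -0.049 for Sqstm1. Library totals gave 0.036 for Gabarap. A mean of at least 1 CPM gave -0.010 for Atg4a and -0.015 for Sqstm1. The offsets gave -0.083 for Sqstm1 and 0.24 for Tax1bp1. With each library left out, the range was -0.17 to 0.78 for Atg101, -0.34 to 0.16 for Atg9a (0.12 without WT library 1), -0.16 to 0.20 for Atg4a (-0.021 without DDI2-KO-labelled library 2), -0.37 to 0.11 for Atg4d, -0.053 to 0.53 for Atg7, -0.040 to 0.027 for Gabarap, -0.007 to 0.028 for Sqstm1, -0.27 to 0.14 for Tax1bp1 (0.015 without WT library 1), -0.72 to 0.043 for Tfeb, and -0.24 to 0.47 for Nfe2l1 (-0.17 without WT library 2). Other values kept their sign but moved by over 1.5 times with a library left out. The range was 0.019 to 0.27 for Ulk2, -0.094 to -0.008 for Map1lc3b, -0.20 to -0.004 for Gabarapl1, -0.058 to -0.032 for Nbr1, -0.29 to -0.054 for Optn, -0.12 to -0.036 for Tfe3, 0.13 to 0.28 for Pik3c3, 0.13 to 0.32 for Becn1, 0.19 to 0.38 for Ddi2 and -0.29 to -0.071 for Nfe2l2. The offsets gave 0.108 for Pik3c3, 0.155 for Atg14, 0.079 for Ulk2, -0.20 for Rb1cc1, -0.036 for Atg9a, -0.29 for Atg2a, 0.018 for Atg4a, -0.082 for Map1lc3b, -0.14 for Gabarap, -0.215 for Gabarapl1, -0.10 for Nbr1, -0.30 for Optn, -0.033 for Tfeb and -0.30 for Nfe2l2. With upper-quartile factors or library totals, moves of this size were limited to genes with a log2 fold change under 0.2 in size. No scaling alternative moved the median of all genes by over 0.1.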

Other observations

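Markers of the other cells of the liver were present in both groups. The 8 Kupffer cell genes, led by Cd5l, summed to 730.0 and 624 CPM in WT and 869 and 743 CPM in the DDI2-KO-labelled libraries, with 6 log2 fold changes above 0 and 2 below, and none had an adjusted p under 0.05 from edgeR. The 8 genes of sinusoidal endothelium, led by Clec4g, summed to 473 and 426 CPM in WT and 436 and 410 CPM in the DDI2-KO-labelled libraries, and Stab2 was the gene among them that passed. The 8 stellate cell genes, led by Dcn, summed to 519 and 574 CPM against 469 and 504 CPM, with all 8 log2 fold changes below 0 and none past the threshold.

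Blood cells left few reads. The 4 neutrophil genes summed to at most 3.05 CPM, with Ly6g at 0 reads in every library, and the 5 lymphocyte genes, with all 5 log2 fold changes below 0, to at most 8.45 CPM. The 4 erythroid genes were led by Hbb-bs in WT and by Alas2 in the DDI2-KO-labelled libraries. They summed to 85.1 and 163 CPM in WT and 65.4 and 54.1 CPM in the DDI2-KO-labelled libraries. The nuclear RNAs Malat1, Neat1 and Xist summed to 737 and 535 CPM in WT and 96.6 and 218 CPM in the DDI2-KO-labelled libraries, with Xist as the most abundant in each library. The part of these markers in the values of the autophagy genes was not tested.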
